A study of Sus scrofa with 8 samples.

Results

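The cadherins and protocadherins of pig limb muscle were taken as all genes whose symbol is CDH followed by a number or starts with PCDH, leaving out CDH5 and CDH15. The rule, which used no measured value but was set with earlier results of these data known, found 36 of the 22516 genes in the table. They comprised 4 type I classical cadherins, 12 type II classical cadherins, 3 other cadherins, 10 protocadherins outside the protocadherin gene clusters and 7 rows of those clusters. Limb muscle tissue was sampled from wild-type pig embryos and from embryos with a combined knockout of MYF5, MYOD (MYOD1) and MYF6, which encode the factors that commit cells to skeletal muscle. Both genotypes were sampled at embryonic day 41 (E41) and embryonic day 62 (E62), which the growth protocol gives as E60, and each of the 4 groups had 2 libraries. The labels call the libraries of a group biological replicates, and a p-value reflects the spread between them. Strain, sex, litter and the alleles made are not stated in the sources used here. Each group's library names carry a number of their own, and the wild-type E41 names carry the code LHL where the others carry RHL, so whatever these numbers and codes mark and the group cannot be told apart.

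Cadherins are calcium-dependent adhesion proteins whose extracellular repeats bind the same or a related cadherin on a neighbouring cell. Classical cadherins are coupled to actin through catenins, and cells that display different classical cadherins tend to sort from each other. Protocadherins share the extracellular repeats but have other cytoplasmic tails, and they are best known from the nervous system. In the limb, CDH11 is known from mesenchyme, CDH2 from myoblasts and condensing mesenchyme, and CDH1 and CDH3 from the epidermis.

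Levels are CPM, that is, counts scaled to the TMM-adjusted total of the library, which allow a gene to be compared across libraries but not with another gene, since transcript length was not used. Total counts ranged from 23402052 to 60539245 per library and were higher in the knockout libraries of each stage. At E41 they were 23402052 and 25239378 in wild type and 42352383 and 42668408 in the knockout. At E62 they were 35867841 and 37676855 in wild type and 60539245 and 52630708 in the knockout. TMM factors were 0.88 to 0.93 in wild type and 1.08 to 1.14 in the knockout. Counts given for single genes are not scaled, so their contrasts between genotypes also hold this difference in totals. The summed CPM of 11 skeletal muscle markers lay between 14989 and 46640 in the wild-type libraries and between 15.0 and 31.1 in the knockout libraries, so the tissue labelled limb muscle held almost no muscle transcripts in the knockout. MYF5 and MYF6 had 0 counts in every knockout library, and MYOD1 had 20 to 88 counts there against 1503 to 5715 in wild type. Some libraries stood apart in their tissue content. Knockout E62 replicate 1 held 419 CPM of summed epidermal markers against 8.24 in replicate 2, and knockout E41 replicate 2 held 4364 CPM of summed cartilage markers against 373 in replicate 1. These are bulk samples, so fewer cells of a type and less RNA per cell cannot be told apart.

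More members were higher than lower without the 3 muscle factors at both stages. Of the 36, 34 had enough counts to be tested. At E41, 12 were higher (35.3%) and 1 lower (2.94%), where 18.5% and 20.8% of all 17020 genes tested were higher and lower (edgeR, adjusted p under 0.05). At E62, 12 were higher (35.3%) and 3 lower (8.82%), against 21.0% and 26.2% of all genes. The median log2 change of the tested members was 0.73 at E41, where that of all genes was 0.09, and 0.43 at E62, where that of all genes was 0.06. Higher at both stages were 8 members, or 23.5%, against 7.56% of all genes: CDH6, CDH7, CDH9, CDH11, CDH12, PCDH8, PCDH10 and PCDH18. Of these, CDH9 passed the count filter only through the knockout libraries. CDH13 was lower at both stages, as were 12.6% of all genes. When libraries were scaled by size alone, the all-gene median moved to 0.38 at E41 and 0.36 at E62, and 20 members were higher at E41. Without knockout E62 replicate 1, 13 members were higher and 5 lower at E62. Knockout libraries lay above wild type without overlap for 25 tested members at E41 (40.1% of all genes) and 16 at E62 (40.1%), and below it for 3 (33.3%) and 9 (37.3%). Other marker lists moved at E62 too, with 7 of 7 macrophage markers (summed CPM 132 and 144 in wild type against 605 and 584) and 5 of 5 adipocyte markers (30.4 and 42.8 against 137 and 208) higher in the knockout. Their part in the members' changes was not tested.

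**Figure D1:**
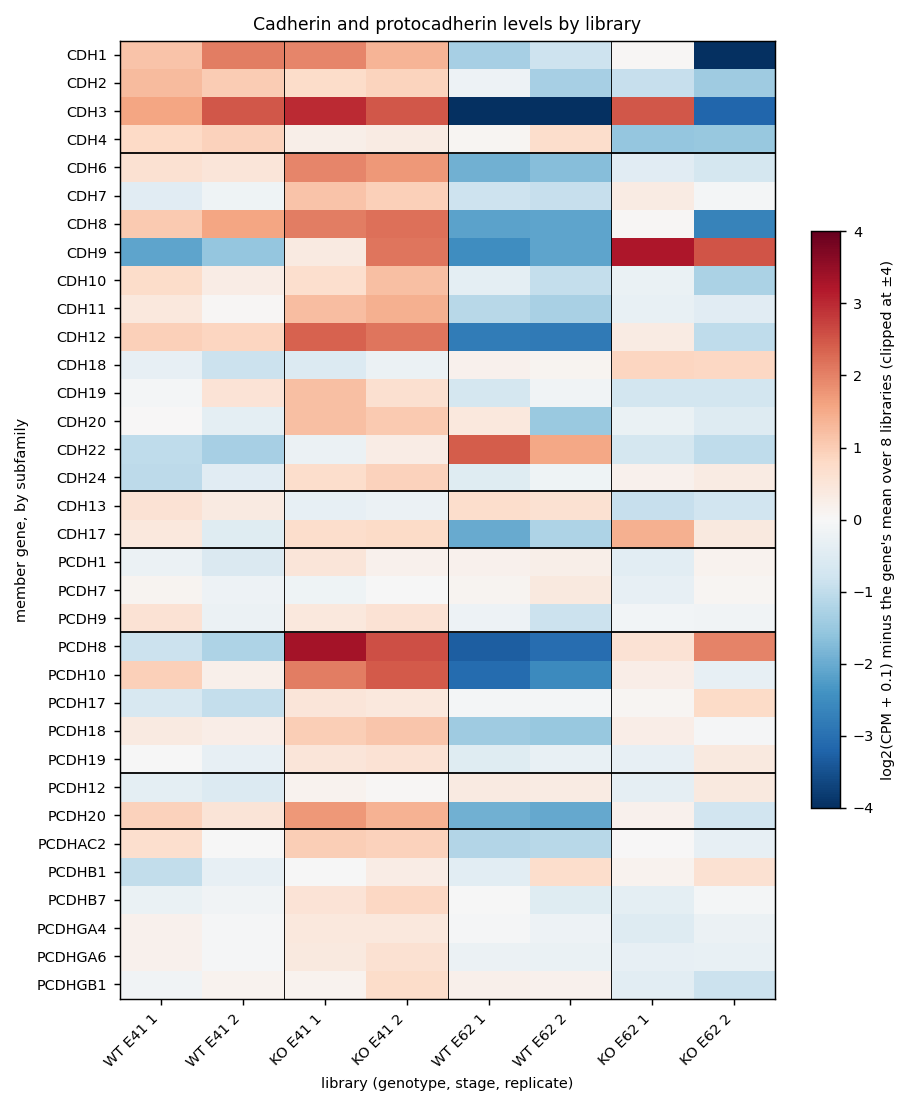
Level of the 34 tested members (rows, by subfamily) in each of the 8 libraries (columns), as log2(CPM + 0.1) minus the gene's mean over all libraries, with red above and blue below that mean. Most type II cadherins and delta-2 protocadherins are reddest in the knockout E41 libraries, CDH22 is reddest in wild-type E62, and CDH1 and CDH3 differ between the knockout E62 replicates.

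The type II classical cadherins, which differ from type I in their adhesive interface and are known for sorting neurons and mesenchymal cells, were more often higher than lower in the knockout. Of 12 tested, 7 were higher and 0 lower at E41 (18.5% and 20.8% of all genes), and 6 were higher and 1 lower at E62 (21.0% and 26.2% of all genes). CDH11, the cadherin of mesenchyme, stood at 557 and 432 CPM in wild type and 987.1 and 1120.3 in the knockout at E41, and 193 and 169.8 in wild type and 339 and 301 in the knockout at E62. Its groups did not overlap at either stage, and its log2 change was 1.09 ± 0.15 (adjusted p = 0.0012) at E41 and 0.82 ± 0.15 (adjusted p = 0.0032) at E62, where ± is the standard error. CDH6, known from kidney and neural crest development, stood at 14.1 and 12.7 CPM in wild type and 35.9 and 30.4 in the knockout at E41, and 2.35 and 2.71 in wild type and 6.59 and 5.56 in the knockout at E62. It changed by 1.31 ± 0.16 (adjusted p = 0.00063) and 1.26 ± 0.17 (adjusted p = 0.00063), so the knockout libraries were about equally far above wild type at both stages while the level itself fell with age in both genotypes.

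CDH7, a neural crest cadherin, stood at 7.29 and 8.89 CPM in wild type and 22.1 and 19.5 in the knockout at E41, and 5.62 and 5.24 in wild type and 12.7 and 9.54 in the knockout at E62. Each knockout library was above each wild-type library of its stage, with log2 changes of 1.36 ± 0.19 (adjusted p = 0.0012) and 1.04 ± 0.19 (adjusted p = 0.003). CDH12 stood at 6.18 and 5.75 CPM in wild type and 16.3 and 13.9 in the knockout at E41, and 0.361 and 0.353 in wild type and 3.95 and 1.49 in the knockout at E62. It was near 0.36 CPM in wild-type E62 (12 counts in each library) and changed by 1.34 ± 0.40 (adjusted p = 0.032) at E41 and 2.92 ± 0.49 (adjusted p = 0.0022) at E62. The E41 call was lost when any 1 of 6 libraries was left out (adjusted p = 0.052 to 0.14), namely each E41 and each wild-type E62 library. Both CDH12 and CDH9 are best known from neurons.

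CDH9 was close to absent in wild type, with 3 and 6 counts at E41 and 3 and 5 at E62, while the knockout had 59 and 209 at E41 and 670 and 355 at E62. In CPM it stood at 0.145 and 0.265 CPM in wild type and 1.27 and 4.54 in the knockout at E41, and 0.0902 and 0.147 in wild type and 9.88 and 5.92 in the knockout at E62. Every wild-type library was under the filter's minimum count of 10, so CDH9 was tested only through the knockout libraries where it is high. The knockout was 13.8-fold above wild type at E41, a log2 change of 3.79 ± 0.76 (adjusted p = 0.007), and 64.8-fold at E62, a log2 change of 6.02 ± 0.79 (adjusted p = 0.00077). With wild type this close to 0, the size of both folds is uncertain. At E41 the adjusted p was 0.059 without wild-type E41 replicate 1 and 0.11 with limma-voom. The summed CPM of neuronal markers was 236 and 427 in wild type and 407 and 399 in the knockout at E41, and 17.9 and 6.42 in wild type and 84.5 and 48.7 in the knockout at E62, with 1 of 7 higher at E41 and 4 at E62, and ELAVL3 at 0 counts in every wild-type library. Of all genes, 18.5% were higher at E41 and 21.0% at E62. The part of neuronal markers in the neural type II cadherins was not tested.

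CDH24 stood at 2.46 and 3.72 CPM in wild type and 8.55 and 9.79 in the knockout at E41, and 3.699 and 4.56 in wild type and 5.87 and 6.52 in the knockout at E62. It changed by 1.57 ± 0.25 (adjusted p = 0.0024) at E41, where the groups were far apart, and by 0.58 ± 0.24 (adjusted p = 0.083) at E62, where both knockout libraries were above wild type without passing the threshold. CDH18, a cadherin of the nervous system, stood at 7.68 and 5.22 CPM in wild type and 6.59 and 8.12 in the knockout at E41, and 10.9 and 10.4 in wild type and 17.3 and 16.97 in the knockout at E62. Its groups overlapped at E41 (0.19 ± 0.21, adjusted p = 0.5), and at E62 it rose by 0.69 ± 0.20 (adjusted p = 0.024), a call lost without any 1 of the 4 E62 libraries (adjusted p = 0.061 to 0.10). CDH10, also neural, stood at 16.5 and 12.1 CPM in wild type and 15.6 and 22.6 in the knockout at E41, and 7.55 and 5.01 in wild type and 8.08 and 4.04 in the knockout at E62, and its groups overlapped at both stages (0.42 ± 0.38 and -0.05 ± 0.38, adjusted p = 0.42 and 0.93).

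CDH22 was the type II cadherin that turned direction. It stood at 0.5797 and 0.442 CPM in wild type and 1.08 and 1.61 in the knockout at E41, and 7.28 and 3.95 in wild type and 0.752 and 0.584 in the knockout at E62, so that wild type gained about 10.9-fold between the stages and the knockout did not. At E41 the knockout was higher by 1.39 ± 0.45 (adjusted p = 0.043), from 12 and 10 counts in wild type and 50 and 74 in the knockout. At E62 the knockout was lower by 8.35-fold, a log2 change of -3.06 ± 0.43 (adjusted p = 0.00084). The E41 call was lost without any E41 library or either knockout E62 library (adjusted p = 0.050 to 0.20), with limma-voom (0.19), with thinned counts (0.076), with only the groups compared (0.063) and with the replicate number as a block (0.054), whereas the E62 call held under every alternative run.

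CDH8, CDH19 and CDH20 passed the threshold at neither stage. CDH8 ranged from 0.4005 to 14.7 CPM, and its changes were 0.79 ± 0.78 (adjusted p = 0.46) and 1.497 ± 0.90 (adjusted p = 0.22). Without either knockout E62 library it was called higher at E41 (adjusted p = 0.027 and 0.025). Without knockout E62 replicate 2 the E62 change was 2.32 (adjusted p = 0.00094), and without replicate 1 it was -0.68 (adjusted p = 0.19). CDH19, the cadherin of Schwann cell precursors, ranged from 2.73 to 10.9 CPM, with both knockout libraries above wild type at E41 and below it at E62. Its changes were 0.70 ± 0.31 (adjusted p = 0.11) and -0.34 ± 0.32 (adjusted p = 0.4). Of 7 other Schwann cell markers tested, 3 were higher and 2 lower at E41 (18.5% and 20.8% of all genes), and 2 higher and 2 lower at E62 (21.0% and 26.2%). Their summed CPM was 382 and 396 in wild type and 196 and 137 in the knockout at E41, and 504 and 519.7 in wild type and 63.7 and 70.8 in the knockout at E62, and their part in CDH19 was not tested. CDH20, also known from neural crest derivatives, changed by 1.33 ± 0.55 (adjusted p = 0.1) and -0.17 ± 0.55 (adjusted p = 0.82), and its wild-type E62 libraries differed widely at 5.65 and 1.44 CPM. Without wild-type E62 replicate 1 its E62 change was 1.12 (adjusted p = 0.039), and without either wild-type E62 library its E41 change was 1.35, with adjusted p of 0.0069 and 0.0062.

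**Figure D2:**
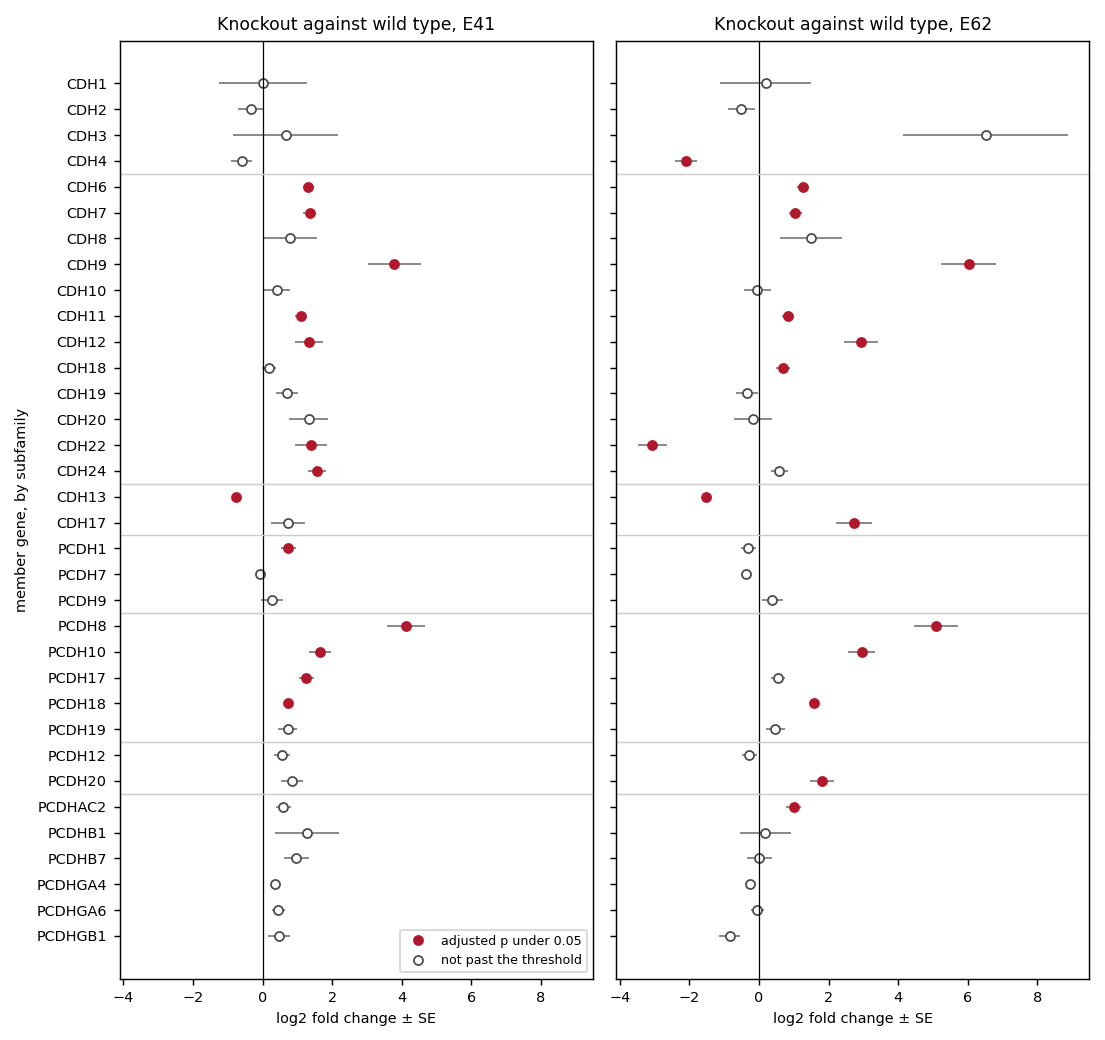
Log2 fold change of knockout against wild type (points) with its standard error (bars) for the 34 tested members, at E41 on the left and E62 on the right, with filled points past the threshold. Type II cadherins and delta-2 protocadherins lie mostly right of 0, CDH13 lies left of 0 at both stages, and CDH22 changes sides.

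The delta-2 protocadherins, a group with a conserved cytoplasmic motif that is studied for cell movement and for neural wiring, were also higher in the knockout in most cases. Of 5, 4 were higher at E41 and 3 at E62, with 0 lower at either stage, where 18.5% and 21.0% of all genes were higher and 20.8% and 26.2% lower. PCDH8, known as paraxial protocadherin from somite formation, stood at 1.59 and 1.19 CPM in wild type and 30.2 and 17.96 in the knockout at E41, and 0.211 and 0.265 in wild type and 4.47 and 11.9 in the knockout at E62. It was 17.3-fold higher in the knockout at E41, a log2 change of 4.11 ± 0.55 (adjusted p = 0.0016), and 33.9-fold higher at E62, a log2 change of 5.08 ± 0.63 (adjusted p = 0.00082). Its counts in wild-type E62 were 7 and 9, and the knockout replicates of a stage lay well apart. PCDH10 stood at 10.97 and 6.55 CPM in wild type and 23.4 and 31.5 in the knockout at E41, and 0.571 and 0.883 in wild type and 6.801 and 4.47 in the knockout at E62. It fell below 1 CPM in wild-type E62 and stayed above 4 CPM in the knockout, with changes of 1.65 ± 0.33 (adjusted p = 0.0067) and 2.95 ± 0.38 (adjusted p = 0.00075).

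PCDH18 stood at 247 and 231 CPM in wild type and 378 and 418 in the knockout at E41, and 71.4 and 66.8 in wild type and 229 and 184 in the knockout at E62. The knockout libraries were above wild type at both stages, by 0.73 ± 0.12 (adjusted p = 0.003) and by 1.58 ± 0.13 (adjusted p = 5.4e-05). PCDH17, which is also expressed in endothelium, stood at 25.1 and 20.4 CPM in wild type and 55.1 and 52.98 in the knockout at E41, and 36.9 and 37.3 in wild type and 41.8 and 66.997 in the knockout at E62. It rose by 1.25 ± 0.22 (adjusted p = 0.004) at E41, and at E62 its knockout libraries were above wild type without passing the threshold (0.55 ± 0.21, adjusted p = 0.067). The E62 change passed in 4 of 18 alternatives, among them DESeq2 (0.59, adjusted p = 0.022) and library size alone (0.86, adjusted p = 0.013). With knockout E62 replicate 1 left out it was 0.84. PCDH19, the X-linked member of the group, was between 3.64 and 7.82 CPM and changed by 0.72 ± 0.28 (adjusted p = 0.076) and 0.47 ± 0.28 (adjusted p = 0.2). It was called at E41 with either knockout E62 library left out (adjusted p = 0.033 without replicate 1) and at E62 without knockout E62 replicate 1 (0.042).

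Markers of limb fibroblasts moved in the same direction as CDH11 and PCDH18. Of 11 tested, 6 were higher at E41 and 9 at E62 (18.5% and 21.0% of all genes), with 0 lower at either stage (20.8% and 26.2%). Their median log2 change was 0.64 at E41 and 1.38 at E62, against 1.09 ± 0.15 and 0.82 ± 0.15 for CDH11. Their summed CPM was 40689.9 and 24567 in wild type and 51718 and 56621 in the knockout at E41, and 29548 and 52468 in wild type and 99830.5 and 104152 in the knockout at E62. COL1A1, a fibrillar collagen gene, stood at 6939.8 and 3802 CPM in wild type and 11026 and 12128 in the knockout at E41, and 4601 and 8423 in wild type and 18384 and 19017 in the knockout at E62. The part of these markers in the members' changes was not tested.

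**Figure D3:**
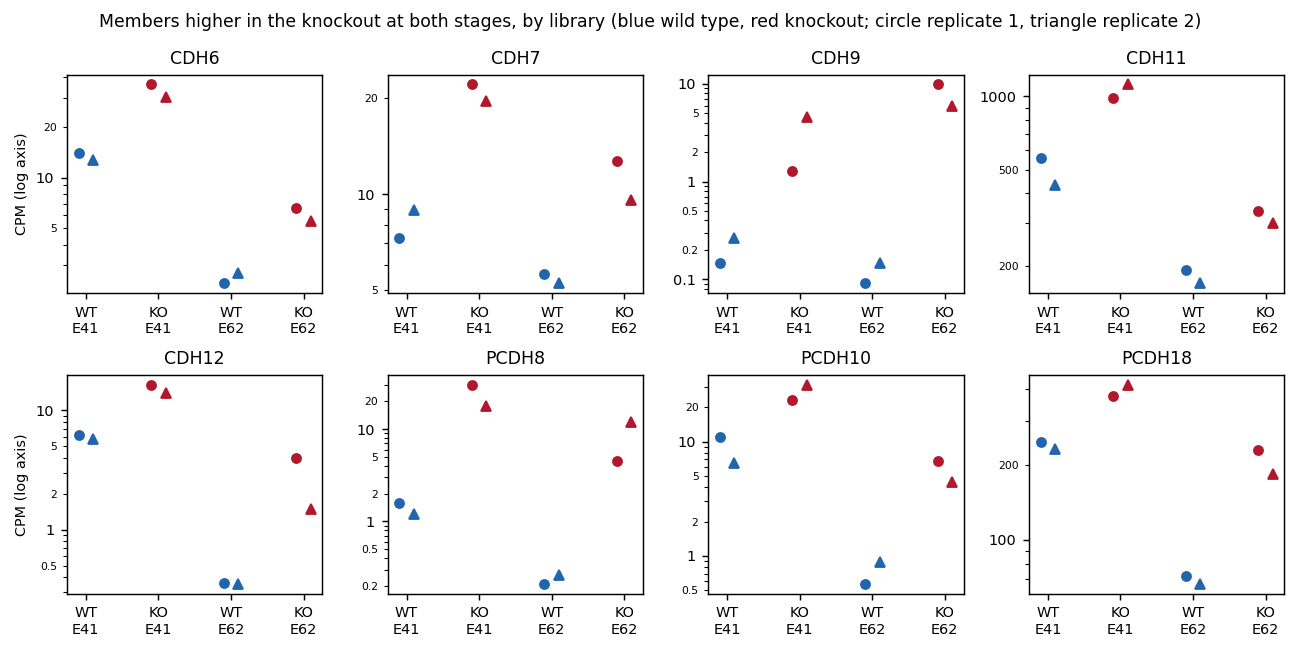
CPM on a log axis in each library for the 8 members higher in the knockout at both stages (blue wild type, red knockout, circles replicate 1 and triangles replicate 2). In each panel both knockout libraries lie above both wild-type libraries of the same stage, and CDH9 alone of the 8 is higher in knockout E62 than in knockout E41 in both libraries.

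The members that fell in the knockout were CDH13 at both stages and CDH4 and CDH22 at E62. CDH15, left out by the rule and counted among the skeletal muscle markers, fell much further. Its changes were -7.41 ± 0.16 (adjusted p = 1.2e-07) at E41 and -9.76 ± 0.18 (adjusted p = 3.9e-08) at E62. CDH5, also left out, passed the threshold at neither stage (0.40 ± 0.22 and 0.38 ± 0.22, adjusted p = 0.19 and 0.18). CDH13, or T-cadherin, is held in the membrane by a lipid anchor and has no cytoplasmic tail. It stood at 133 and 113 CPM in wild type and 70.4 and 74.9 in the knockout at E41, and 146 and 134 in wild type and 46.4 and 51.8 in the knockout at E62. Wild-type libraries were above knockout libraries without overlap, the log2 change was -0.76 ± 0.11 (adjusted p = 0.0015) at E41 and -1.51 ± 0.11 (adjusted p = 3.5e-05) at E62, and both calls held under every alternative run. CDH13 is known from endothelium and smooth muscle. Of 8 smooth muscle and pericyte markers, 1 was higher and 3 lower at E41 (18.5% and 20.8% of all genes), and 2 higher and 4 lower at E62 (21.0% and 26.2%). Their summed CPM was 1485 and 1286 in wild type and 628 and 615 in the knockout at E41, and 1693 and 1777 in wild type and 578 and 741 in the knockout at E62, and their part in CDH13 was not tested. The endothelial markers went the other way, with 4 of 9 higher at E41, 5 higher at E62, 0 lower at either stage and medians of 0.59 and 0.63. CDH4, or R-cadherin, a type I cadherin close to CDH2, stood at 3.72 and 4.03 CPM in wild type and 2.48 and 2.65 in the knockout at E41, and 2.23 and 3.45 in wild type and 0.649 and 0.667 in the knockout at E62. Its counts in knockout E62 were 44 and 40 against 74 and 117 in wild type. It changed by -0.60 ± 0.30 (adjusted p = 0.15) at E41, without overlap but not past the threshold, and by -2.10 ± 0.32 (adjusted p = 0.0012) at E62.

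CDH2, or N-cadherin, which joins myoblasts and other mesenchymal cells, passed the threshold at neither stage. It stood at 138 and 116 CPM in wild type and 94.7 and 106 in the knockout at E41, and 50.1 and 22.6 in wild type and 29.9 and 21.2 in the knockout at E62. Both knockout E41 libraries were below wild type, a change of -0.34 ± 0.37 (adjusted p = 0.52), and the E62 groups overlapped (-0.51 ± 0.38, adjusted p = 0.31). With only the E41 groups in the fit the E41 difference was -0.38 (adjusted p = 0.048), and without wild-type E62 replicate 2 the E62 difference was -0.98 (adjusted p = 0.016). CDH2 was thus present in knockout tissue that held almost no muscle transcripts.

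CDH1 and CDH3, the E- and P-cadherins of epithelia, were high in the libraries with high levels of epidermal markers. CDH1 stood at 60.9 and 115 CPM in wild type and 107 and 70.7 in the knockout at E41, and 10.9 and 15.6 in wild type and 28.8 and 1.22 in the knockout at E62. CDH3 stood at 18.7 and 34.9 CPM in wild type and 50.1 and 34.9 in the knockout at E41, and 0.211 and 0.177 in wild type and 35.1 and 0.601 in the knockout at E62. In knockout E62, replicate 1 was far above replicate 2 for both genes. The summed CPM of 7 other epidermal markers was 486 and 775 in wild type and 1099.8 and 677 in the knockout at E41, and 12.8 and 13.9 in wild type and 419 and 8.24 in the knockout at E62, and that of the desmosomal cadherins was 99.2 and 161 in wild type and 199.8 and 104 in the knockout at E41, and 16.5 and 10.2 in wild type and 139 and 16.8 in the knockout at E62, so of the knockout E62 pair the same library was higher in all 4 measures. KRT15, a keratin of basal epidermis, was at 258 and 3.34 CPM in those 2 libraries and KRT8, a keratin of simple epithelia, at 92.1 and 0.684. The order was not particular to CDH1 and CDH3, and held in other members, among them CDH8, CDH10, CDH12, CDH17 and PCDH20. It was reversed in PCDH8, PCDH12 and PCDH17, among others. CDH1 stood at 28.8 CPM in knockout E62 replicate 1 against 10.9 and 15.6 in wild-type E62. The epidermal sum differed by more, at 419 against 12.8 and 13.9.

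At E41 CDH1 changed by 0.02 ± 1.26 (adjusted p = 0.99) and CDH3 by 0.66 ± 1.51 (adjusted p = 0.77). At E62 the changes were 0.19 ± 1.31 (adjusted p = 0.92) for CDH1 and 6.51 ± 2.37 (adjusted p = 0.08) for CDH3, with standard errors above 1 log2 unit. CDH3 had 7 and 6 counts in wild-type E62, so the size of its change is uncertain. With DESeq2 the E62 change of CDH3 was 6.56 (adjusted p = 0.0001). Without knockout E62 replicate 1, the log2 change of CDH1 was -3.45 (adjusted p = 0.013). Without replicate 2, that of CDH3 was 7.48 (adjusted p = 0.00026). The part of epidermis in these values was not tested.

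**Figure D4:**
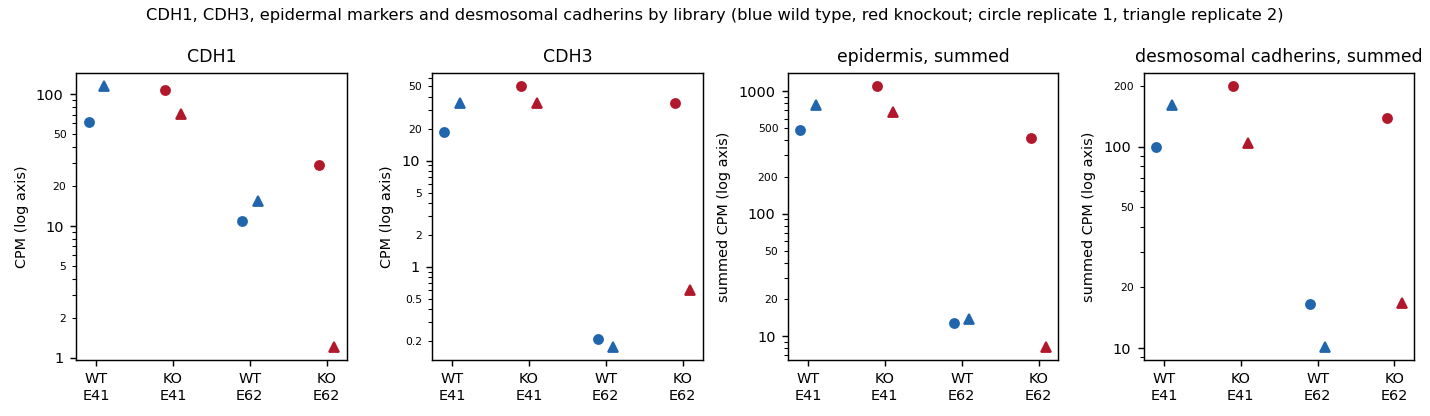
CPM on a log axis in each library for CDH1, CDH3, the sum of 7 epidermal markers other than CDH1 and the sum of the desmosomal cadherins (blue wild type, red knockout, circles replicate 1 and triangles replicate 2). In knockout E62 the circle lies above the triangle in each panel, at 28.8 against 1.22 CPM for CDH1 and 35.1 against 0.601 for CDH3.

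Of the other cadherins outside types I and II, CDH17 passed the threshold at E62. CDH17, the liver-intestine cadherin, stood at 2.898 and 1.504 CPM in wild type and 3.57 and 3.73 in the knockout at E41, and 0.451 and 0.854 in wild type and 5.87 and 2.85 in the knockout at E62. It changed by 0.73 ± 0.48 (adjusted p = 0.26) at E41, and at E62 it rose by 2.73 ± 0.51 (adjusted p = 0.0035), from 15 and 29 counts in wild type to 398 and 171 in the knockout. CDH16, the kidney cadherin, had 0 to 3 counts in each library and was not tested.

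The delta-1 protocadherins PCDH1, PCDH7 and PCDH9 are known from epithelia and neurons. Of these 3, 1 was higher at E41 and 0 at E62 (18.5% and 21.0% of all genes), with 0 lower (20.8% and 26.2% of all genes). PCDH1, known from airway epithelium, stood at 29.4 and 23.004 CPM in wild type and 48.5 and 39.02 in the knockout at E41, and 38.8 and 40.6 in wild type and 25.9 and 38.3 in the knockout at E62. It rose by 0.74 ± 0.21 (adjusted p = 0.028) at E41 and changed by -0.31 ± 0.21 (adjusted p = 0.26) at E62. The E41 call was lost without wild-type E41 replicate 2 (adjusted p = 0.14), without knockout E41 replicate 1 (0.14) and with the replicate number as a block (0.051). Without knockout E62 replicate 2 the E62 change was -0.62 (adjusted p = 0.035). PCDH7 stood at 69.8 and 56.4 CPM in wild type and 57.7 and 63.4 in the knockout at E41, and 69.4 and 84.5 in wild type and 51.8 and 67.6 in the knockout at E62, with changes of -0.06 ± 0.17 (adjusted p = 0.81) and -0.37 ± 0.17 (adjusted p = 0.11). Its E62 change was -0.57 (adjusted p = 0.034) without knockout E62 replicate 2. PCDH9 was between 3.12 and 8.62 CPM and changed by 0.28 ± 0.31 (adjusted p = 0.52) and 0.39 ± 0.31 (adjusted p = 0.34).

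PCDH12, a protocadherin of endothelial cells, and PCDH20 are placed here in neither delta group. PCDH12 stood at 23.2 and 20.7 CPM in wild type and 33.6 and 31.01 in the knockout at E41, and 38.6 and 38.2 in wild type and 23.6 and 39.4 in the knockout at E62. Both knockout libraries were above wild type at E41 (0.56 ± 0.22, adjusted p = 0.082) and the E62 groups overlapped (-0.29 ± 0.21, adjusted p = 0.3). It passed the threshold at E41 without either knockout E62 library (adjusted p = 0.0054 without replicate 1) and with only the E41 groups in the fit (0.013). At E62 it was lower without knockout E62 replicate 2 (-0.70, adjusted p = 0.0055). Of 9 endothelial markers, 4 were higher at E41 and 5 at E62 (18.5% and 21.0% of all genes). Their summed CPM was 829 and 678 in wild type and 1089 and 975 in the knockout at E41, and 872 and 898 in wild type and 1023 and 1643 in the knockout at E62. Knockout E62 replicate 2 was above replicate 1 in this sum, as it was in PCDH12, PCDH1 and PCDH17. The same order held in other members, among them PCDH7, PCDH8, PCDH19 and PCDHGA4. The reverse order held in CDH11 and PCDH18, among others. The part of endothelium in any of these members was not tested. PCDH20 stood at 11.98 and 8.98 CPM in wild type and 21.1 and 16.5 in the knockout at E41, and 1.59 and 1.44 in wild type and 7.04 and 3.604 in the knockout at E62. It changed by 0.85 ± 0.32 (adjusted p = 0.07) at E41 and rose by 1.81 ± 0.35 (adjusted p = 0.0041) at E62. At E41 it passed in 7 of 18 alternatives, among them DESeq2 (adjusted p = 0.037), the replicate block (0.026) and only the groups compared (0.021). The runs without either knockout E62 library were also among the 7.

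Clustered protocadherins are encoded in tandem arrays whose isoforms give neurons distinct surface identities, and isoforms of the alpha and gamma arrays share their last exons. Estimated counts divide shared reads among rows, so values of single rows of the clusters are uncertain. Of 7 rows, 6 were tested, 0 passed the threshold at E41, and PCDHAC2 was higher at E62. PCDHAC2 stood at 24.3 and 15.2 CPM in wild type and 30.4 and 29.4 in the knockout at E41, and 6.77 and 7.07 in wild type and 15.3 and 12.2 in the knockout at E62. It changed by 0.60 ± 0.22 (adjusted p = 0.062) at E41 and 0.99 ± 0.22 (adjusted p = 0.008) at E62, a call lost without wild-type E62 replicate 1 (adjusted p = 0.059). At E41 it passed in 7 of 18 alternatives, among them DESeq2 (adjusted p = 0.041), limma-voom (0.043) and the replicate block (0.044). Without wild-type E41 replicate 1 its E41 change was 1.02. PCDHGA4, a row of the gamma array, stood at 372 and 314 CPM in wild type and 443 and 437 in the knockout at E41, and 318 and 285 in wild type and 231 and 277 in the knockout at E62. Its knockout libraries were above wild type at E41 (0.36 ± 0.13, adjusted p = 0.06) and below it at E62 (-0.25 ± 0.13, adjusted p = 0.15). It was called higher at E41 in 6 of 18 alternatives, among them DESeq2 (adjusted p = 0.033) and library size alone (0.0064). The runs without wild-type E41 replicate 1 or either knockout E62 library were also among the 6.

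The remaining tested cluster rows passed the threshold at neither stage. PCDHGA6 ranged from 5.13 to 9.94 CPM, PCDHGB1 from 1.75 to 5.52, PCDHB7 from 1.03 to 2.74 and PCDHB1 from 0.0483 to 0.383. Their E41 changes lay between 0.46 ± 0.18 and 1.28 ± 0.92 and their E62 changes between -0.84 ± 0.30 and 0.18 ± 0.73. PCDHGB1 was lower at E62 without knockout E62 replicate 1 (-1.10, adjusted p = 0.048). PCDHA13 had 0 to 5 counts in each library and was not tested.

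Whether the knockout effect itself differed between stages was tested as the difference of the E62 and E41 changes. Of 34 members, 1 gave a higher effect at E62 and 5 a lower one, or 2.94% and 14.7%, against 11.2% and 15.5% of all genes. CDH22 differed by -4.45 ± 0.62 (adjusted p = 0.0027), CDH13 by -0.75 ± 0.15 (adjusted p = 0.011), CDH4 by -1.51 ± 0.43 (adjusted p = 0.037), PCDH1 by -1.05 ± 0.30 (adjusted p = 0.038) and PCDHGA4 by -0.61 ± 0.18 (adjusted p = 0.045), and PCDH18 differed upward by 0.85 ± 0.17 (adjusted p = 0.011). CDH22 and CDH13 kept the call with each library left out in turn. PCDH18 lost it without knockout E41 replicate 1 (adjusted p = 0.053), CDH4 without any library but wild-type E62 replicate 1 (0.063 to 0.12), PCDH1 without any but wild-type E41 replicate 1 and knockout E62 replicate 2 (0.051 to 0.12), and PCDHGA4 without the same 6 libraries as PCDH1 (0.055 to 0.12). With the replicate number as a block, CDH4, PCDH1 and PCDHGA4 were no longer past the threshold (0.051, 0.068 and 0.073). PCDHGA4 also lost it with relative log expression factors (0.063) and with library size alone (0.055). Knockout E62 replicate 2 mattered most in the other direction, since without it CDH3, CDH8, CDH12, CDH17 and PCDH20 had a higher effect at E62 and PCDH12 and PCDH17 a lower one (adjusted p = 0.0022 to 0.027).

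**Figure D5:**
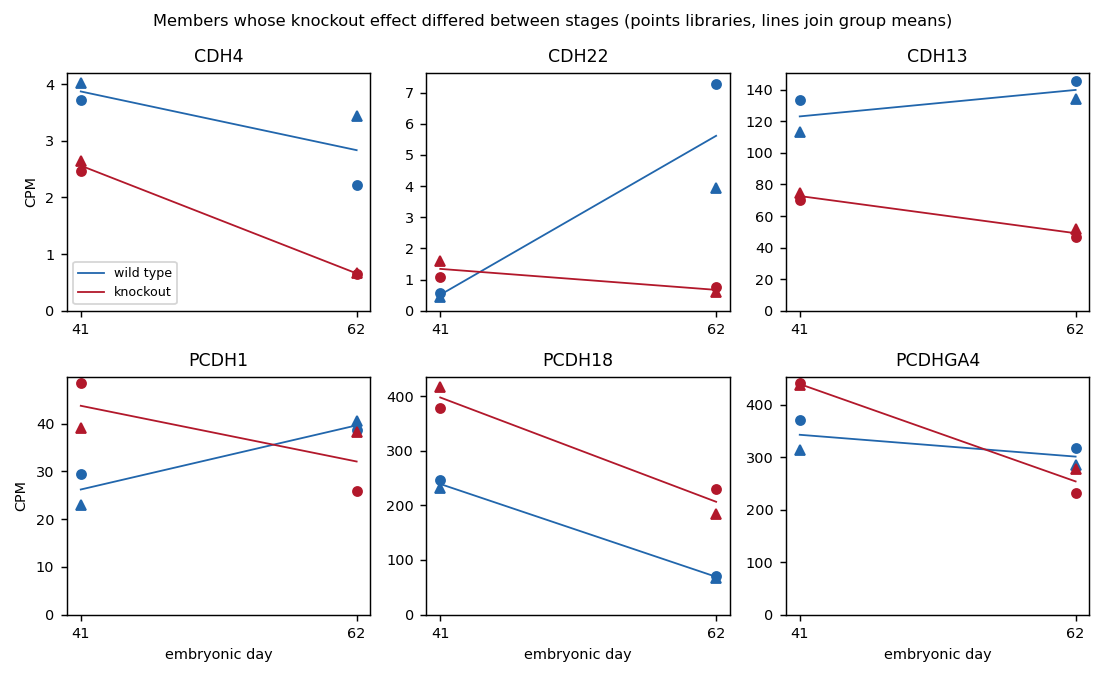
CPM in each library (points) against embryonic day for the 6 members whose knockout effect differed between stages, with lines joining the group means (blue wild type, red knockout). CDH22 rises in wild type from 0.511 to 5.61 CPM and lies lower in knockout E62 than in wild-type E62, and the PCDH18 lines fall in both genotypes.

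Age moved the members mostly downward. Between E41 and E62, 13 of 34 fell and 4 rose in wild type (38.2% and 11.8%), where 20.0% and 19.8% of all genes fell and rose. In the knockout 18 fell and 1 rose (52.9% and 2.94%), against 18.0% and 12.1% of all genes. The 2 comparisons contrast different libraries but come from the same fit and share its estimate of the spread, so their calls are not independent. In both genotypes 12 members (35.3%) fell, against 6.08% of all genes: CDH2, CDH6, CDH7, CDH8, CDH10, CDH11, CDH12, PCDH8, PCDH10, PCDH18, PCDH20 and PCDHAC2. Among the members that kept the call in both genotypes with each library left out, CDH12 fell by 16.6-fold in wild type (-4.05 ± 0.50, adjusted p = 0.0011) and 5.55-fold in the knockout (-2.47 ± 0.41, adjusted p = 0.0054). PCDH10 changed by -3.58 ± 0.39 and -2.28 ± 0.33, CDH6 by -2.40 ± 0.17 and -2.45 ± 0.16, PCDH20 by -2.78 ± 0.35 and -1.82 ± 0.32, PCDH18 by -1.79 ± 0.13 and -0.94 ± 0.12 and CDH11 by -1.45 ± 0.15 and -1.72 ± 0.15.

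The neural cadherin CDH18 rose in both genotypes, as did 4.07% of all genes, by 0.72 ± 0.21 (adjusted p = 0.027) in wild type and 1.22 ± 0.20 (adjusted p = 0.0049) in the knockout. CDH22, PCDH12 and PCDH17 rose with age in wild type (3.45 ± 0.46, 0.81 ± 0.22 and 0.71 ± 0.22, adjusted p = 0.0013, 0.024 and 0.036), and their knockout changes were -1.0003 ± 0.41, -0.04 ± 0.21 and 0.01 ± 0.21. CDH17 fell in wild type (-1.74 ± 0.52, adjusted p = 0.031). CDH4, CDH13, CDH19, PCDHGA4, PCDHGA6 and PCDHGB1 fell in the knockout, with a change of -1.96 ± 0.31 (adjusted p = 0.0044) for CDH4 and -0.79 ± 0.13 (adjusted p = 0.0048) for PCDHGA4, and their wild-type changes were not past the threshold (-0.45 ± 0.30 and -0.19 ± 0.13 for these 2).

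Markers of other cell types also differed with age. Of all genes, 20.0% fell and 19.8% rose in wild type, and 18.0% fell and 12.1% rose in the knockout. In wild type, 4 of 7 neuronal markers fell (summed CPM 236 and 427 at E41 against 17.9 and 6.42 at E62), as did 4 of 7 epidermal markers (486 and 775 against 12.8 and 13.9) and 3 of 7 Schwann cell markers, while 11 of 11 skeletal muscle markers rose. In the knockout, 1 of the neuronal, 2 of the epidermal and 4 of the Schwann cell markers fell, and 7 of 7 macrophage markers rose. Of limb fibroblast markers, 1 rose and 4 fell in wild type, and 2 rose and 1 fell in the knockout. The part of these markers in the members' age changes was not tested.

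Several age calls rested on individual libraries or on the processing. Of the 17 in wild type, 9 were lost when at least 1 library was left out, and of the 19 in the knockout 10 were. In wild type, the highest adjusted p came without E41 replicate 1 for CDH17 (0.18) and CDH2 (0.069), and without E41 replicate 2 for CDH7 (0.25), PCDH17 (0.14), PCDH12 (0.11) and CDH18 (0.084). It came without wild-type E62 replicate 1 for PCDH8 (0.13), and without E62 replicate 2 for CDH10 (0.25) and CDH8 (0.13). In the knockout, it came without E41 replicate 1 for PCDH8 (0.21), CDH7 (0.080), CDH19 (0.056) and PCDHAC2 (0.051), and without E41 replicate 2 for PCDHGB1 (0.19), PCDHGA6 (0.095), CDH10 (0.093), CDH2 (0.074) and CDH13 (0.054). For CDH8 it was 0.13 without either knockout E41 library. Over 18 alternatives in all, PCDH8 in the knockout lost the call in 15, among them relative log expression factors (adjusted p = 0.052), library size alone (0.054), the replicate block (0.074) and only the groups compared (0.15). CDH7 in wild type lost it in 13, among them limma-voom (0.16), library size alone (0.058) and the replicate block (0.059). CDH10 in wild type lost it in 11, among them limma-voom (0.079) and library size alone (0.051). With limma-voom the wild-type calls of PCDH8 (0.35), CDH17 (0.15), PCDH17 (0.074) and PCDH12 (0.055) were lost too. The replicate block ended those of CDH17 (0.052) and PCDH17 (0.057) in wild type and of CDH8 in the knockout (0.063), which was lost in 9 of 18. CDH1 and CDH3 were not called with age in either genotype, with log2 changes of -2.73 ± 1.37 and -7.09 ± 2.38 in wild type. Without knockout E62 replicate 1 the adjusted p there was 0.0071 and 0.00033.

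Members lie close to each other on several chromosomes, which the rule did not use. RefSeq's gene table for Sscrofa11.1, a build named in the submitters' processing notes, gave positions by symbol for 28 of the 36. On chromosome 16, CDH18 (chromosome 16, 8090253 to 9117046), CDH12 (chromosome 16, 9985759 to 10975489), CDH10 (chromosome 16, 12094687 to 12277672), CDH9 (chromosome 16, 13938711 to 14076498) and CDH6 (chromosome 16, 17531862 to 17660081) follow each other in this order. Of these 5 neighbours, CDH12, CDH9 and CDH6 were higher in the knockout at both stages and CDH18 at E62, whereas CDH10, which lies between CDH12 and CDH9, was called at neither. CDH1 (chromosome 6, 18075487 to 18155986) and CDH3 (chromosome 6, 18190971 to 18236184) are 34984 bases apart. PCDH1 (chromosome 2, 143475931 to 143501204) and PCDH12 (chromosome 2, 143550844 to 143565028) are 49.6 kb apart. PCDH1 was higher at E41, and PCDH12 was called at neither stage. CDH19 (chromosome 1, 155669361 to 155758550) and CDH7 (chromosome 1, 156295885 to 156436375) are 537 kb apart, and CDH7 was called at both stages and CDH19 at neither. On chromosome 8, PCDH18 (chromosome 8, 89321487 to 89335406) and PCDH10 (chromosome 8, 93023079 to 93047265) are neighbours 3.69 Mb apart, and both were higher at both stages.

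The catenins couple classical cadherins to actin and set their turnover. Of a list of 9 catenins and vinculin (VCL), an actin-binding partner of alpha catenin, 2 were higher and 4 lower at E41, and 1 higher and 6 lower at E62, with medians of -0.26 and -0.52. At E41, 18.5% of all genes rose and 20.8% fell, and at E62 21.0% rose and 26.2% fell. VCL was one of the 6 (-0.39 ± 0.14, adjusted p = 0.049). CTNND1, the p120 catenin that stabilises cadherins at the membrane, stood at 371 and 364 CPM in wild type and 238 and 214 in the knockout at E41, and 289 and 318 in wild type and 199 and 184 in the knockout at E62. It was lower in the knockout at both stages, with changes of -0.70 ± 0.10 (adjusted p = 0.0015) and -0.67 ± 0.10 (adjusted p = 0.0013). CTNNA1, the alpha catenin that binds actin, changed by -0.54 ± 0.09 (adjusted p = 0.0034) and -0.65 ± 0.09 (adjusted p = 0.001). CTNNA3, an alpha catenin known from heart, was at 23.3 and 27.5 CPM in wild type at E62 against 0.457 and 0.684 in the knockout (-5.48 ± 0.41, adjusted p = 4.6e-05). CTNND2, a relative of CTNND1 known from neurons, changed by -0.61 ± 0.19 (adjusted p = 0.04) at E41 and -0.87 ± 0.19 (adjusted p = 0.0072) at E62. The following 3, and VCL, are named after their values were seen. JUP, the plakoglobin of desmosomes and adherens junctions, rose by 0.67 ± 0.19 (adjusted p = 0.03) and 0.60 ± 0.19 (adjusted p = 0.038), and PKP4 rose at E41 (0.50 ± 0.14, adjusted p = 0.025). CTNNB1, or beta catenin, which binds the tail of classical cadherins, passed the threshold at neither stage (-0.12 ± 0.12 and 0.11 ± 0.12, adjusted p = 0.45 and 0.47).

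The giant and seven-pass cadherins act in planar polarity and tissue growth. Of 8, 3 were higher and 0 lower at E41 (18.5% and 20.8% of all genes), and 3 higher and 1 lower at E62 (21.0% and 26.2%). DCHS1, the ligand of FAT4, stood at 149.9 and 132 CPM in wild type and 269.8 and 248 in the knockout at E41, and 114 and 128 in wild type and 124 and 150.0 in the knockout at E62, and rose by 0.88 ± 0.13 (adjusted p = 0.0014) at E41. FAT4 stood at 136 and 99.8 CPM in wild type and 319.6 and 306 in the knockout at E41, and 88.3 and 155 in wild type and 170.0 and 278 in the knockout at E62, and rose by 1.41 ± 0.34 (adjusted p = 0.021) at E41, and at E62 it changed by 0.88 ± 0.34 (adjusted p = 0.077). CELSR1 was at 0.842 and 1.21 CPM in wild-type E62 against 39.3 and 24.3 in knockout E62, a rise of 4.95 ± 0.63 (adjusted p = 0.0018).

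The desmosomal cadherins, which tie keratin networks of neighbouring epithelial cells together, had 0 of 6 called at E41 and 3 higher at E62. DSG3 stood at 17.4 and 20.4 CPM in wild type and 24.2 and 8.53 in the knockout at E41, and 0.0602 and 0.0294 in wild type and 14.2 and 2.52 in the knockout at E62, and DSC1 at 3.14 and 5.88 CPM in wild type and 10.5 and 5.84 in the knockout at E41, and 0.0301 and 0.0589 in wild type and 24.8 and 0.434 in the knockout at E62. Their E62 changes were 7.46 ± 1.53 (adjusted p = 0.011) and 8.05 ± 2.52 (adjusted p = 0.049). Both genes were close to 0 CPM in wild-type E62, so the size of these changes is uncertain. The DSC1 change rested mostly on knockout E62 replicate 1, at 24.8 CPM against 0.434 in replicate 2. Runs with libraries left out were read for the members only, not for these genes. For both the level in knockout E62 replicate 1 was above that in replicate 2, as it was for CDH1, CDH3 and other members.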

How the data were processed

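The deposited table holds estimated counts (expected counts) per gene as whole numbers in 8 library columns. Among tools, kallisto and DESeq2 appear in the submitters' processing notes, and Sscrofa11.1 and susScr11 among builds, with no version or role. The sources used here do not say which annotation, filter or rounding applied, nor whether counting used strand, so overlapping and antisense genes cannot be told apart. Per the labels' protocols, libraries came from a TruSeq RNA or Stranded mRNA kit.

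Symbols matched 15527 of 22516 gene identifiers (69.0%). Counts were rounded, filtered with filterByExpr (minimum count 10, leaving 17020 genes), TMM-scaled, and modelled with edgeR 4.0.16 under R 4.3.3 over all 8 libraries, 1 mean per group, robust quasi-likelihood, 4 residual degrees of freedom. The two-sided F test with Benjamini-Hochberg adjustment over all genes, threshold 0.05, gave all adjusted p-values, and the standard error is the log2 change over the square root of F. No replicate pair was within sampling noise (chi-square over its degrees of freedom of 30 to 68). The fit was tested on simulated data.

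Members, marker lists and companion lists were chosen with earlier results of these data known. Values per library are given for members called in a knockout comparison or in the difference between stages, or with a mean of at least 10 CPM. Of companion lists, up to 4 genes with the smallest p may be named.

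The alternatives were DESeq2 1.42.0, limma-voom (limma 3.58.1), scaling by relative log expression, by library size alone and by TMM outside muscle genes, no filter, at least 1 CPM in 4 libraries, thinning of counts to the smallest library, a block for the replicate number, fits of only the groups compared, and leaving out each library. Leaving out a library leaves a group with 1 library, which is assumed to vary like the others. CDH23, CDH26, PCDH11X and PCDH15 were not analysed here.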

Additional observations from a re-analysis of the deposited data

Results flagged for a closer look

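In 6 members the knockout effect differed between E62 and E41 by the edgeR test of the difference itself, each from 2 libraries per group. The log2 difference was -4.45 for CDH22, -1.51 for CDH4, -1.05 for PCDH1, -0.75 for CDH13, 0.85 for PCDH18 and -0.61 for PCDHGA4. CDH22 turned from higher in the knockout at E41 to lower at E62, in both libraries of each group, while CDH13 and CDH4 lay lower in the knockout at both stages and further so at E62. PCDH18 lay higher in the knockout at both stages and further so at E62. PCDH1 and PCDHGA4 lay above wild type in both knockout libraries at E41 and below it in both at E62. At E62 neither passed the edgeR threshold (adjusted p = 0.26 and 0.15), and PCDHGA4 did not at E41 (0.06). For PCDH1 at E62, the nearest libraries were at 38.3 CPM in the knockout and 38.8 in wild type. Of all genes, 37.3% lay below wild type without overlap at E62.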

How the results depend on the processing

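Of the members' 70 calls over the 5 comparisons, recomputed 1254 times in all, 1106 values stayed past the threshold in the same direction, 148 did not pass it and 0 changed sign.

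At E41, 9 to 16 members were higher (12 in the report) and 1 lower with libraries left out. Library size alone gave 20 higher, and only the groups compared gave 2 lower. At E62, 11 to 13 were higher and 3 to 6 lower with libraries left out, and library size alone gave 15 higher and 3 lower. For the difference between stages, 0 to 6 had a higher and 2 to 6 a lower effect with libraries left out. DESeq2 gave 5 higher effects and thinned counts gave 2. The replicate block gave 2 lower effects. For age in wild type, 1 to 5 rose and 7 to 15 fell, and limma-voom gave 2 that rose. For age in the knockout, 1 to 2 rose and 11 to 19 fell, and limma-voom gave 2 that rose. The cause of these moves was not tested.

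Replicate numbers are shared by the groups but not stated to mark a litter or batch, and differences between replicates correlated across genes at -0.12 between the E41 groups and -0.01 between the E62 groups, so the numbers were not taken as pairs. The replicate block gave 12 members higher and 1 lower at E41 and 12 and 3 at E62. A replicate block with the wild-type E41 numbers exchanged, chosen after seeing the data, gave 12 and 1 at E41.

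Changes of sign concerned values that were not past the threshold with all libraries. For the E62 knockout effect, CDH1 was -1.01 with limma-voom, -0.15 with the replicate block, -0.05 without wild-type E62 replicate 1 and -3.45 without knockout E62 replicate 1. With libraries left out, CDH2 ranged from -0.98 to 0.18, CDH20 from -0.85 to 1.12, CDH8 from -0.68 to 2.32 and PCDH12 from -0.70 to 0.030. CDH20 was 0.15 with limma-voom, 0.12 with library size alone and 0.038 with thinned counts. With library size alone, PCDH1 was 0.0011 and PCDH12 0.022. For the difference between stages, CDH1 was -1.06 with limma-voom, -0.014 with the replicate block, -0.38 without wild-type E41 replicate 2, -0.11 without knockout E41 replicate 2, -0.10 without wild-type E62 replicate 1 and between -3.47 and 1.10 without a knockout E62 library, and CDH8 ranged from -1.47 to 1.52. For age in wild type, CDH20 was 0.024 with TMM outside muscle genes, 0.0063 with the 1 CPM filter, 0.26 without wild-type E41 replicate 1 and between -1.29 and 0.68 without a wild-type E62 library. Without 1 library, the values -3.45 and -3.47 of CDH1, 1.12 of CDH20, -0.98 of CDH2, 2.32 and 1.52 of CDH8, -0.70 of PCDH12 and -1.29 of CDH20 passed the threshold. Among 51 further values called in no fit, 73 of 889 recomputed values changed sign.

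Low counts limit CDH9 and PCDH8 in wild type, CDH22 at E41, CDH3 and CDH12 in wild-type E62 and PCDHB1 throughout, among others.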

Other observations

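Genes that act on cadherins were also read from lists. Of 7 repressors and sheddases, 2 were higher and 0 lower at E41 (18.5% and 20.8% of all genes), and 2 higher and 2 lower at E62 (21.0% and 26.2%). SNAI2, a repressor of CDH1 transcription, stood at 58.7 and 60.9 CPM in wild type and 104 and 88.5 in the knockout at E41, and 52.1 and 42.5 in wild type and 66.7 and 71.002 in the knockout at E62, and rose by 0.69 ± 0.12 (adjusted p = 0.0039) and 0.54 ± 0.12 (adjusted p = 0.0084). TWIST2, a mesenchymal factor, stood at 11.11 and 17.1 CPM in wild type and 87.1 and 64.3 in the knockout at E41, and 0.842 and 3.89 in wild type and 25.4 and 26.6 in the knockout at E62, and rose by 2.42 ± 0.58 (adjusted p = 0.023) and 3.46 ± 0.63 (adjusted p = 0.0076); it is also on the limb fibroblast list. SNAI3 had 331 and 139 counts in wild-type E62 and 0 in both knockout E62 libraries. Among 8 regulators of the clustered protocadherins, 0 were higher and 4 lower at E41 (18.5% and 20.8% of all genes), and 1 higher and 4 lower at E62 (21.0% and 26.2%). RAD21, a cohesin subunit, changed by -0.49 ± 0.10 (adjusted p = 0.0069) and -0.79 ± 0.10 (adjusted p = 0.00058), and CTCF, which binds the promoters of the clusters, by -0.32 ± 0.08 (adjusted p = 0.02) and -0.15 ± 0.08 (adjusted p = 0.17).

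Of 8 partners of protocadherin signalling, 2 were higher and 2 lower at E41, and 1 higher and 3 lower at E62. For this list and those that follow, the all-gene shares were 18.5% higher and 20.8% lower at E41, and 21.0% and 26.2% at E62. CYFIP2, a subunit of the WAVE actin complex, stood at 34.01 and 25.1 CPM in wild type and 8.03 and 9.84 in the knockout at E41, and 44.99 and 35.9 in wild type and 8.98 and 7.99 in the knockout at E62, and was lower at both stages, with changes of -1.73 ± 0.19 (adjusted p = 0.00048) and -2.25 ± 0.19 (adjusted p = 7.7e-05). PTK2B, a focal adhesion kinase, stood at 6.52 and 6.06 CPM in wild type and 13.2 and 11.4 in the knockout at E41, and 7.07 and 6.01 in wild type and 16.1 and 15.02 in the knockout at E62, and rose by 0.97 ± 0.16 (adjusted p = 0.0028) and 1.25 ± 0.16 (adjusted p = 0.00056). Of 4 nectins and afadin tested, 0 were higher and 1 lower at E41, and 2 higher and 2 lower at E62. NECTIN3 was lower at both stages, with changes of -0.66 ± 0.14 (adjusted p = 0.0069) and -1.34 ± 0.14 (adjusted p = 0.00019). Of 10 cadherin-related proteins, 3 were higher and 2 lower at E41, and 3 higher and 4 lower at E62. RET, the GDNF receptor with cadherin-like repeats, stood at 12.7 and 9.95 CPM in wild type and 3.57 and 3.105 in the knockout at E41, and 26.2 and 24.5 in wild type and 7.13 and 4.56 in the knockout at E62, and was lower at both stages, with changes of -1.76 ± 0.24 (adjusted p = 0.0012) and -2.11 ± 0.24 (adjusted p = 0.00028). CLSTN1, a calsyntenin, rose by 0.41 ± 0.09 (adjusted p = 0.0071) at E41 and fell at E62, with a change of -0.51 ± 0.09 (adjusted p = 0.0021) and a difference between stages of -0.92 ± 0.12 (adjusted p = 0.0023).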
